A study of Mus musculus with 6 samples.

Results

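Creatine synthesis and creatine cycling genes were examined by diet, normal chow (NCD) or high-fat (HFD), in the gonadal white fat (gWAT) of male mice. The genes were chosen by name for their known roles. They are Gatm and Gamt, which make creatine, the creatine kinases Ckb, Ckmt1 and Ckmt2, the creatine transporter Slc6a8 and the phosphatase Alpl. Of these 7 genes, 6 were found among the 19790 genes counted, and Ckmt2 was not analysed here. RNA-seq had been made from 6 male wild-type C57BL/6 mice, 3 per diet, fed NCD or HFD for 8 weeks. The labels give an age of 6 weeks at the start of feeding, and the study's methods give 8 weeks. HFD for 8 weeks is the study's model of diet-induced obesity, and the samples were whole tissue, so every cell type of the fat pad contributed RNA.

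Creatine is built in a pair of steps. Glycine amidinotransferase moves the amidino group of arginine to glycine, and guanidinoacetate methyltransferase then adds a methyl group taken from S-adenosylmethionine. Creatine kinases move phosphate between ATP and creatine in the cytosol and in the space between the mitochondrial membranes, and in thermogenic fat a cycle of creatine phosphorylation and phosphocreatine hydrolysis is known to spend ATP and release heat. Cells can also import creatine from the blood through the transporter encoded by Slc6a8.

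Depth was between 49575113 and 66360046 counts per library, so counting error was small for all of the 6 genes except Ckmt1. Secretory genes of the seminal vesicle, a gland that lies beside the gonadal fat of males, held 58.6%, 11.2% and 2.30% of the counts in NCD replicates 1, 2 and 3 and under 0.001% in every HFD library, and 9 of those 11 genes were lower on HFD. NCD replicate 1 therefore stands apart, and the results that rest on it are given with and without it. The adipocyte list of 10 genes, Adipoq and Plin1 among them, was detected in all 6 libraries, with a summed level of 8014 to 44065 CPM on NCD and 13454 to 20960 on HFD. Values below are CPM (counts scaled to library size) with the library sizes adjusted by TMM, which sets libraries to a common level for the bulk of genes. In whole tissue, fewer cells of a type and less RNA per cell cannot be told apart.

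None of the 6 creatine genes passed an adjusted p of 0.05 between the diets when all 6 mice were used (edgeR's quasi-likelihood test, adjusted over the 15241 genes tested), where 7.47% of all genes tested passed, 5.58% higher and 1.9% lower on HFD. At an unadjusted p under 0.05 there were 2 of 6, Gatm and Ckmt1, beside 29.7% of all genes tested. DESeq2 called the same 2 as higher on HFD, beside 25.6% of all genes in either direction, 14.1% higher and 11.5% lower. Beyond these, 4 of the 6 passed by DESeq2 without NCD replicate 1, beside 34.8% of all genes, 1 by limma voom with sample weights, beside 36.5%, and 1 with scaling by total counts alone, beside 6.29%. Without NCD replicate 1, Gatm rose 3.03-fold and Gamt fell 2.70-fold on HFD, which is 2 of 6 beside 20.9% of all genes tested. The median log2 fold change of the 6 genes was 0.04 with all mice, beside -0.08 for all genes tested, and 0.89 without NCD replicate 1, beside 0.02. The diets did not overlap for 1 of the 6 genes, Gatm, which was higher on HFD, beside 39.2% of all genes tested, 20.5% higher and 18.7% lower. Without NCD replicate 1 they did not overlap for 4 of the 6, 3 higher and 1 lower on HFD, beside 57.1% of all genes, 27.9% higher and 29.1% lower. For 1 of these 3, Ckmt1, this rests on few counts, 20 in HFD replicate 3 against 16 and 13 in NCD replicates 2 and 3.

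**Figure D1:**
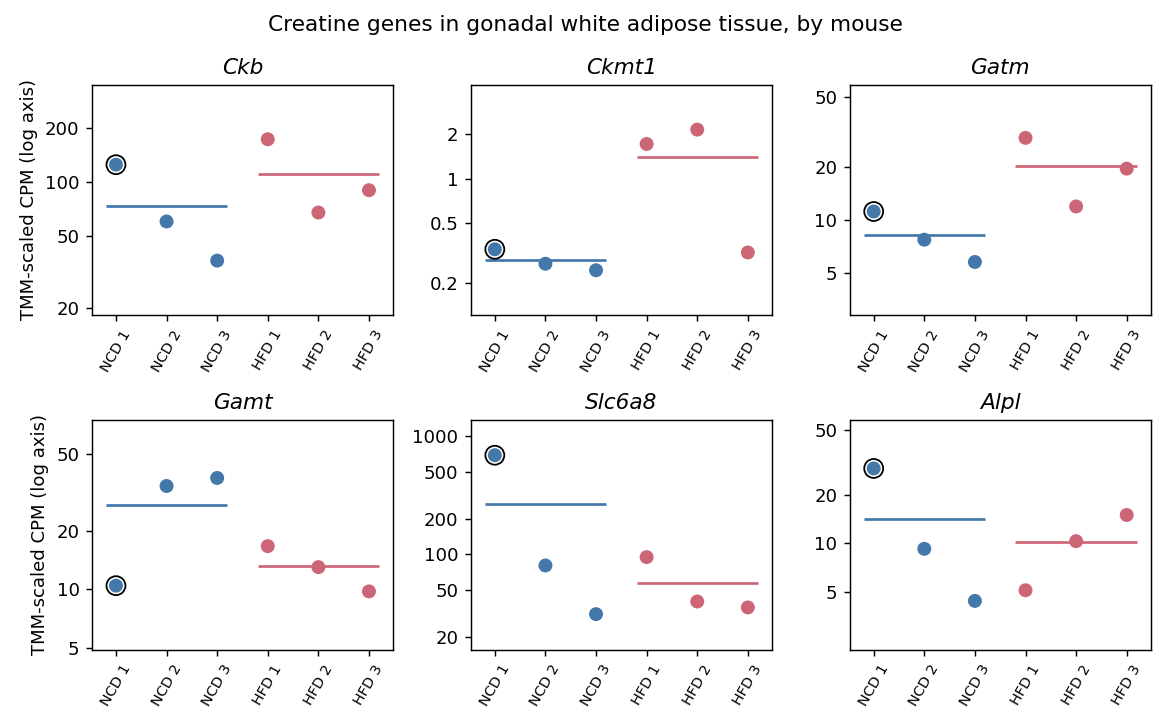
TMM-scaled CPM (log axes) of the 6 creatine genes in each mouse, blue for NCD and red for HFD, with a line at each diet's mean and a ring around NCD replicate 1. Gatm is the gene whose HFD mice, from 11.9 to 29.3, all sit above the NCD mice, and the ringed mouse is the highest of all for Slc6a8, at 688.

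The promoters of 3 of the 6 genes are shown. Gatm and Gamt were taken as the synthesis enzymes, which lay on opposite sides of 0. Ckb was taken for its level, the highest of the 6 on HFD, and not for a diet difference. Each is 300 bases, from 250 before to 50 after a RefSeq start (GRCm38.p6), written 5′ to 3′ on the strand of the gene. For Gamt that start lies inside the gene coordinates given below, and not at their end. Capitals mark matches, on either strand, to TATAAA (the TATA box), to CCAAT (the CCAAT box), to GGGCGG (the GC box) and to AGGTCA (the nuclear receptor core site).
Gatm, chr2:122611228-122611527, minus strand: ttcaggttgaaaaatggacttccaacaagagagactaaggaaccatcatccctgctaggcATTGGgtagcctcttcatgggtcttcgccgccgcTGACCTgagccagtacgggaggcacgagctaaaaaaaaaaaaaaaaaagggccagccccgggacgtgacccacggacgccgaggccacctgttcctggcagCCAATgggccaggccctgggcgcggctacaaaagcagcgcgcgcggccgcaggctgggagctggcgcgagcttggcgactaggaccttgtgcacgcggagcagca
Gamt, chr10:80260963-80261262, minus strand: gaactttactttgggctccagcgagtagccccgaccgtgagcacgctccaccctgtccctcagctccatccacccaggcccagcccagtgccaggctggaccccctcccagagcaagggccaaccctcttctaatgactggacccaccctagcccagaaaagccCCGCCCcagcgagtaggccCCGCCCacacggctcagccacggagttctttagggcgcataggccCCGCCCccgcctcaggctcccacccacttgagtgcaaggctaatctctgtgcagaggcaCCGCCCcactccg
Ckb, chr12:111672289-111672588, minus strand: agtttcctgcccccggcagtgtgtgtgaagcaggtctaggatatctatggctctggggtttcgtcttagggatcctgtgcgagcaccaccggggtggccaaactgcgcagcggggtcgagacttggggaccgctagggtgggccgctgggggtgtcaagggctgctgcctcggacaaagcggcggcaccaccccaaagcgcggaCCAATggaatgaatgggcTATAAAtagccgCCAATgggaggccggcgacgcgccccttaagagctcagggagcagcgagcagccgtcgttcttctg
The Gatm promoter held CCAAT with its first base 55 bases before the start and the reverse complement of CCAAT and of AGGTCA further up. The Gamt promoter held 4 reverse complements of GGGCGG and none of the other motifs. The Ckb promoter had TATAAA between 2 CCAAT matches, all within 50 bases of the start. Over all 32544 promoters of the same length, 13.57% held TATAAA, 37.36% CCAAT, 35.88% GGGCGG and 16.25% AGGTCA. These matches are letters in a window and no binding was measured.

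Gatm (NCBI gene 67092, chr2:122594473-122611277, minus strand) encodes glycine amidinotransferase, the mitochondrial enzyme of the first and rate-controlling step. Its level was 11.2, 7.73 and 5.77 CPM in NCD replicates 1, 2 and 3 and 29.3, 11.9 and 19.6 CPM in HFD replicates 1, 2 and 3. Every HFD mouse was above every NCD mouse. Mean levels were 8.22 ± 2.74 CPM on NCD and 20.3 ± 8.71 on HFD (SD, n = 3 each). The log2 fold change was 1.30 (SE 0.40, 95% interval 0.32 to 2.29), with an adjusted p of 0.098 by edgeR and 0.018 by DESeq2. It was 1.60 (SE 0.40) without NCD replicate 1, and Gatm then passed with an adjusted p of 0.043 by edgeR.

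Macrophage genes were also higher on HFD. The 10 genes of that list, Adgre1 and Cd68 among them, summed to 380 to 897 CPM on NCD and 2164 to 4818 on HFD, 4 of the 10 passed as higher, and none was at 0 in either diet. Across the HFD mice, Gatm and the macrophage sum had the same order, with replicate 1 highest and replicate 2 lowest. They did not on NCD, where the sum was 380, 897 and 788 CPM in replicates 1, 2 and 3. NCD replicate 1, with the lowest macrophage sum, had the highest Gatm of the NCD mice. Per 1000 CPM of the macrophage list, Gatm was 29.4, 8.61 and 7.32 on NCD and 6.08, 5.52 and 7.39 on HFD. On that scale HFD replicate 3 was just above NCD replicate 3, and the other HFD mice were below every NCD mouse. The part of macrophage RNA in the Gatm difference was not tested.

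Gamt (NCBI gene 14431, chr10:80258151-80261025, minus strand) encodes guanidinoacetate methyltransferase, which completes creatine. Its level was 10.4, 34.2 and 37.6 CPM in NCD replicates 1, 2 and 3 and 16.7, 13.02 and 9.76 CPM in HFD replicates 1, 2 and 3. NCD replicates 2 and 3 were above all HFD mice, while NCD replicate 1 fell inside their range. With all 6 mice the log2 fold change was -1.06 (SE 0.50) and did not pass, with an adjusted p of 0.21 by edgeR. The NCD mean without replicate 1 was 35.9 ± 2.42 CPM (SD, n = 2) against 13.2 ± 3.48 on HFD (SD, n = 3). Gamt then fell by 1.43 on the log2 scale (SE 0.23), with an adjusted p of 0.014 by edgeR.

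On NCD the summed adipocyte list stood at 8014 CPM in replicate 1, 33959 in replicate 2 and 44065 in replicate 3, and on HFD at 20960, 16946 and 13454 CPM. Over the 6 mice this is the order of Gamt, except that HFD replicate 3 and NCD replicate 1 change places at the low end. None of its 10 genes passed by edgeR with all 6 mice, and none was at 0 in either diet. Per 1000 CPM of the adipocyte list, Gamt was 1.30, 1.01 and 0.853 on NCD and 0.797, 0.768 and 0.725 on HFD. On that scale all NCD mice were above all HFD mice, and the range narrowed. The part of adipocyte RNA in the Gamt difference was not tested.

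The ratio of Gatm to Gamt was taken in counts per exon length inside each library, where scaling between libraries plays no part. It was 0.464, 0.0981 and 0.0666 in NCD replicates 1, 2 and 3 and 0.761, 0.398 and 0.870 in HFD replicates 1, 2 and 3. HFD replicate 2 was below NCD replicate 1, and the other HFD mice were above all NCD mice. On the log2 scale the ratio was higher on HFD by 2.15, with an exact two-sided permutation p of 0.2 (0.3 after Benjamini-Hochberg adjustment over 3 ratios), where 3 mice against 3 cannot go below 0.1. The difference was 2.99 without NCD replicate 1, and every remaining HFD value lay above both NCD values.

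Ckb (NCBI gene 12709, chr12:111669355-111672338, minus strand) encodes the brain-type cytosolic creatine kinase, the isoform found in most tissues other than muscle. Its level was 125, 60.3 and 36.6 CPM in NCD replicates 1, 2 and 3 and 172, 67.7 and 90.0 CPM in HFD replicates 1, 2 and 3. NCD replicate 1 was above HFD replicates 2 and 3, and the other NCD mice were below every HFD mouse. For Ckb the log2 fold change was 0.58 (SE 0.54) with all mice, with an adjusted p of 0.51 by edgeR, and 1.20 (SE 0.45) without NCD replicate 1, with an adjusted p of 0.11 by edgeR and 0.031 by DESeq2. In CPM with no TMM scaling Ckb was 61.7, 61.6 and 39.2 on NCD and 199, 85.1 and 114 on HFD. The diets did not overlap on that scale, and the TMM factor was 0.496 for NCD replicate 1 and 1.02 to 1.27 for the other mice. Scaled by total counts alone the log2 fold change of Ckb was 1.29, beside a median of 0.45 for all genes, and it did not pass.

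Across the HFD mice Ckb, like Gatm, had the order of the macrophage sum. On NCD it did not, and Ckb was highest in replicate 1, where that sum was lowest. Per 1000 CPM of the macrophage list Ckb was 35.8, 31.3 and 33.9 in HFD replicates 1, 2 and 3 and 328, 67.2 and 46.4 in NCD replicates 1, 2 and 3. Relative to that list, all HFD mice were thus below all NCD mice. The part of macrophage RNA in the level of Ckb was not tested.

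Ckmt1 (NCBI gene 12716, chr2:121357773-121363737, plus strand) encodes the ubiquitous mitochondrial creatine kinase. It had 11, 16 and 13 counts in NCD replicates 1, 2 and 3 and 99, 179 and 20 counts in HFD replicates 1, 2 and 3. On the TMM scale this was 0.335, 0.268 and 0.242 CPM on NCD and 1.72, 2.15 and 0.319 on HFD. HFD replicates 1 and 2 were high, and HFD replicate 3 was within the NCD range. The log2 fold change was 2.31 (SE 0.74, 95% interval 0.52 to 4.10), with an adjusted p of 0.10 by edgeR and 0.019 by DESeq2. It was 2.45 (SE 0.89) without NCD replicate 1, again with an adjusted p of 0.10 by edgeR. Its last 490 bases overlap the gene Strc, so reads there may belong to either gene unless counting used strand, on which the sources used here are silent.

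The ratio of Ckb to Ckmt1 per exon length was 412, 253 and 169 in NCD replicates 1, 2 and 3 and 116, 36.4 and 319 in HFD replicates 1, 2 and 3. HFD replicate 3 lay inside the NCD range and the other HFD mice below it. On the log2 scale the ratio differed by -1.24 (HFD minus NCD; exact two-sided permutation p = 0.3, and 0.3 adjusted over 3 ratios), and by -0.91 without NCD replicate 1. Ckm, the muscle-type cytosolic kinase, had 286, 51 and 4 counts in NCD replicates 1, 2 and 3 and 4 to 6 counts in the HFD mice, and did not pass the filter on low counts. On NCD its level had the order of the skeletal muscle list, of which it is itself a member, and on HFD it did not. That list summed to 394, 43.2 and 13.7 CPM on NCD and 4.40 to 9.08 on HFD, with Myh4 at 0 in all HFD mice. Of the length-scaled RNA of Ckb, Ckmt1 and Ckm together, Ckb made up 96.2% to 99.6% in every mouse.

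Slc6a8 (NCBI gene 102857, chrX:73673133-73682502, plus strand) encodes the sodium- and chloride-dependent creatine transporter. Its level was 688, 80.1 and 31.0 CPM in NCD replicates 1, 2 and 3 and 94.3, 39.7 and 35.4 CPM in HFD replicates 1, 2 and 3. NCD replicate 1 stood far above all other mice, and NCD replicates 2 and 3 lay to either side of HFD replicates 2 and 3. Slc6a8 had a log2 fold change of -2.24 (SE 1.16) with all mice and 0.04 (SE 0.57, 95% interval -1.37 to 1.44) without NCD replicate 1, and it passed in neither (adjusted p of 0.25 and 0.97 by edgeR). NCD replicate 1 held 22.2 times the level of NCD replicate 3, a ratio above that of 97.7% of all genes tested.

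Among the NCD mice the order of Slc6a8 was that of the seminal vesicle share, and also that of the summed epithelial list (1656, 187 and 51.0 CPM in replicates 1, 2 and 3) and the summed smooth muscle list (6747, 826 and 279 CPM). Ckb, Ckmt1, Gatm and Alpl had this order too, and Gamt had the reverse. On HFD the epithelial sum was 46.4, 182 and 60.1 CPM in replicates 1, 2 and 3, with Cldn7 and Elf3 at 0. The smooth muscle sum there was 258 to 358 CPM. The HFD order of Slc6a8, highest in replicate 1, was that of the smooth muscle, skeletal muscle, endothelial and adipocyte sums. It was not that of the epithelial sum, which was lowest in replicate 1. On NCD the skeletal muscle sum had the order of Slc6a8, and the endothelial and adipocyte sums had the reverse. None of the 8 smooth muscle genes passed by edgeR, and 1 of the 12 epithelial genes passed as lower. The part of these tissues in the level of Slc6a8 was not tested.

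The ratio of Gatm to Slc6a8, synthesis against uptake, was 0.0270, 0.160 and 0.309 in NCD replicates 1, 2 and 3 and 0.516, 0.499 and 0.920 in HFD replicates 1, 2 and 3. All HFD mice were above all NCD mice. The log2 difference was 2.49, with an exact two-sided permutation p of 0.1, the smallest that 3 mice against 3 allow (0.3 adjusted over 3 ratios). The difference was 1.48 without NCD replicate 1, and the diets still did not overlap.

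**Figure D2:**
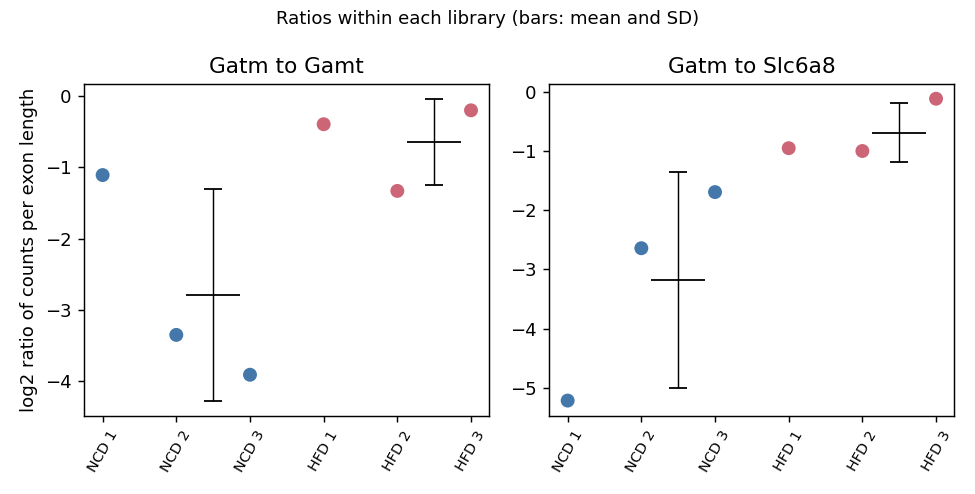
Within-library log2 ratios of counts per exon length in each mouse (points), Gatm to Gamt on the left and Gatm to Slc6a8 on the right, with the mean and SD of each diet (bars, n = 3). On the left HFD replicate 2 falls below NCD replicate 1, and on the right all HFD mice lie above all NCD mice.

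Alpl (NCBI gene 11647, chr4:137741731-137796384, minus strand) encodes tissue-nonspecific alkaline phosphatase, known in thermogenic fat as a mitochondrial phosphocreatine phosphatase and elsewhere for bone mineralization. Its level was 29.0, 9.25 and 4.41 CPM in NCD replicates 1, 2 and 3 and 5.13, 10.3 and 14.95 CPM in HFD replicates 1, 2 and 3. The diets overlapped with and without NCD replicate 1, which was the highest of the 6. The log2 fold change was -0.49 (SE 0.74) with all mice and 0.59 (SE 0.53) without NCD replicate 1, so its direction turned, and neither passed (adjusted p of 0.69 and 0.46 by edgeR). On HFD Alpl had the order of the neutrophil list, which summed to 20.6, 144 and 393 CPM in replicates 1, 2 and 3. On NCD that list summed to 4.93, 9.55 and 6.68 CPM, with Ly6g and Retnlg at 0. Its order there was not that of Alpl. NCD replicate 1, with the highest Alpl of the 6 mice, had the lowest neutrophil sum. Of the 8 neutrophil genes 4 could be tested and 1 passed as higher, and the part of neutrophil RNA in Alpl was not tested.

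**Figure D3:**
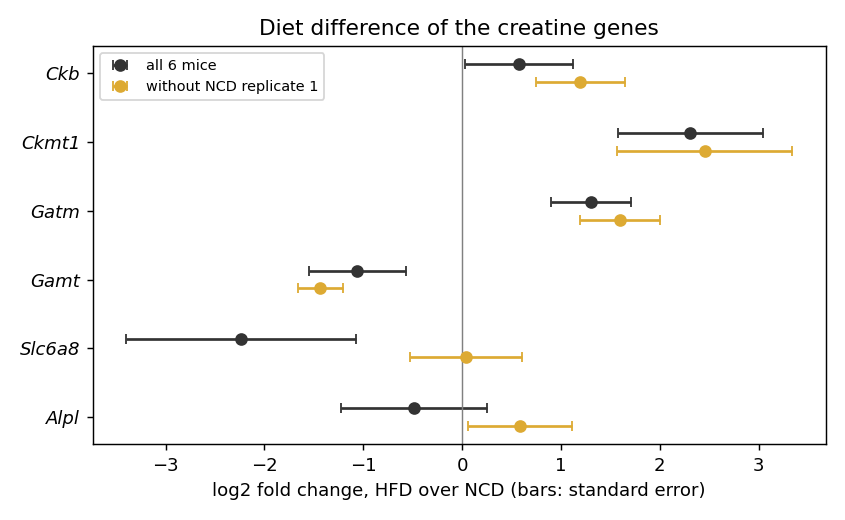
Log2 fold change of HFD over NCD for the 6 creatine genes (points; bars are the standard error), with all 6 mice in black and without NCD replicate 1 in yellow. Slc6a8 moves from -2.24 to 0.04 and Alpl from -0.49 to 0.59, while the other 4 genes keep their sign.

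Levels of different genes were compared per exon length, as FPKM computed from the TMM-scaled counts. Ckb was the highest of the 6 in every HFD mouse, at 117, 46.0 and 61.1 FPKM in replicates 1, 2 and 3. On NCD the highest gene differed by mouse and was Slc6a8 at 173 FPKM in replicate 1, Ckb at 41.0 in replicate 2 and Gamt at 36.3 in replicate 3. Ckmt1 was the lowest in all 6 mice, at 0.142 to 0.197 FPKM on NCD and 0.187 to 1.26 on HFD.

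By their means on HFD the order was Ckb at 74.8 ± 37.5 FPKM, Slc6a8 at 14.2 ± 8.29, Gamt at 12.7 ± 3.36, Gatm at 8.49 ± 3.65, Alpl at 4.02 ± 1.95 and Ckmt1 at 0.818 ± 0.561 (SD, n = 3). Slc6a8 was above Gamt in 1 of 3 HFD mice, and their mean log2 difference of 0.05 was within its SD of 0.46. Gatm exceeded Alpl in 3 of 3, yet by a mean log2 difference of 1.09 that was within its SD of 1.25. The remaining neighbours on HFD differed by more than 1 SD of their log2 difference. On NCD with all 3 mice, Gamt over Alpl and Gatm over Ckmt1 were the neighbours that differed by more than 1 SD. Without replicate 1 the NCD order was Gamt, Ckb, Slc6a8, Gatm, Alpl and Ckmt1, and within the pairs Gamt and Ckb, and Gatm and Alpl, each gene was the higher in 1 of 2 mice.

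**Figure D4:**
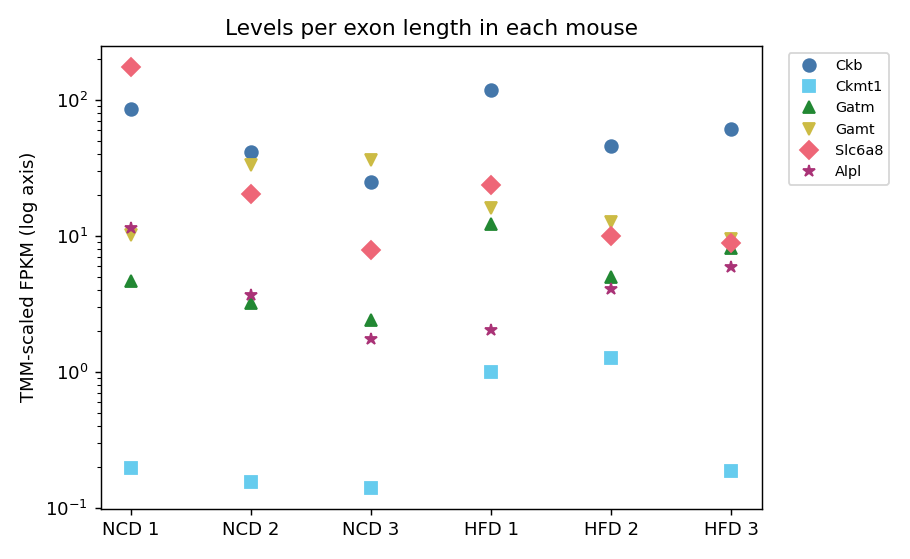
FPKM (TMM-scaled counts per exon length, log axis) of the 6 creatine genes, with 1 symbol per gene in each mouse. Ckb tops the 3 HFD mice, Ckmt1 lies lowest in all 6, and Slc6a8 tops NCD replicate 1 at 173.

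Genes that supply creatine synthesis or work beside the creatine kinases were taken from a list of 33 genes made by function, of which 30 were found and 28 tested. With all 6 mice, 2 of the 28 passed, both lower on HFD, beside 7.47% of all genes tested and 1.9% for lower alone, and 10 had an unadjusted p under 0.05, beside 29.7% of all genes. Their median log2 fold change was -0.50, beside -0.08 for all genes tested. Without NCD replicate 1, 9 were lower and 1 was higher on HFD, beside 10.1% and 10.7% of all genes tested, and the median was -0.45, beside 0.02. The diets did not overlap for 9 lower and 2 higher genes with all mice, beside 18.7% and 20.5% of all genes. They did not overlap for 17 lower and 2 higher genes without NCD replicate 1, beside 29.1% and 27.9%. The adipocyte sum was likewise lower in every HFD mouse than in NCD replicates 2 and 3, and the part of adipocyte RNA in these differences was not tested.

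Arginine and glycine supply comprised 12 tested genes, of which 1 passed with all 6 mice, beside 7.47% of all genes tested and 1.9% for lower alone. Psph, the phosphatase that ends serine synthesis and so precedes glycine, was 33.0, 34.8 and 29.2 CPM on NCD and 9.41, 11.5 and 11.4 on HFD. All HFD mice were far below all NCD mice, NCD replicate 1 included. It fell by 1.58 on the log2 scale (SE 0.16), with an adjusted p of 0.019 by edgeR. This call was lost when any mouse other than NCD replicate 1 was left out (adjusted p of 0.055 to 0.097), fits in which at most 7 of all genes passed. It was also lost with libraries scaled by total counts alone (0.13). With the replicate number as a block it was lost too (0.068), where 12 of all genes passed. Without NCD replicate 1 Psph fell by 1.55 (SE 0.16, adjusted p of 0.0066 by edgeR). Psat1, the enzyme of the step before, was 189, 183 and 190 CPM on NCD and 172, 124 and 101 on HFD. The diets did not overlap, and the log2 fold change of -0.50 (SE 0.23) did not pass by edgeR (adjusted p of 0.20 with all mice and 0.19 without NCD replicate 1), while limma voom with sample weights called it (adjusted p of 0.031).

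Slc7a2, a cationic amino acid transporter that carries arginine, was 5.08, 7.53 and 7.95 CPM on NCD and 4.37, 4.78 and 4.61 on HFD. All HFD values were below all NCD values. With all mice its log2 fold change was -0.58 (SE 0.25, adjusted p of 0.18 by edgeR), and it fell by 0.74 (SE 0.17) without NCD replicate 1, with an adjusted p of 0.037 by edgeR. Oat, ornithine aminotransferase, was 216, 155 and 158 CPM on NCD and 135, 184 and 159 on HFD, with overlapping diets. Arg1, the arginase that spends arginine, was named after its values were seen, for its size. It was 0.365, 3.71 and 9.40 CPM on NCD and 12.7, 158 and 288 on HFD. Every HFD mouse was above every NCD mouse, and the log2 fold change of 5.08 (SE 1.50) had an adjusted p of 0.089 by edgeR and 0.00018 by DESeq2. The neutrophil list had the same order as Arg1 across the HFD mice but not across the NCD mice, and its part was not tested.

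S-adenosylmethionine supply and use comprised 9 tested genes, of which 1 passed with all 6 mice, beside 7.47% of all genes tested and 1.9% for lower alone. Adk, adenosine kinase, which clears the adenosine left by methylation, was 60.6, 86.7 and 106 CPM on NCD and 40.8, 36.0 and 26.2 on HFD. All HFD mice were below all NCD mice. Adk fell by 1.30 on the log2 scale (SE 0.27), with an adjusted p of 0.044 by edgeR, and by 1.48 (SE 0.21, adjusted p of 0.011 by edgeR) without NCD replicate 1. This call too was lost when any mouse other than NCD replicate 1 was left out, fits in which at most 7 of all genes passed. It was also lost with no filter on low counts, with scaling by total counts alone and with the replicate number as a block.

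Of the methyltransferases that share the methyl donor with Gamt, Pemt, which makes phosphatidylcholine, was 3.75, 8.60 and 9.88 CPM on NCD and 3.85, 4.35 and 3.49 on HFD. As for Gamt, NCD replicate 1 lay with the HFD mice and the other NCD mice above them, and the log2 fold change with all mice was -0.93 (SE 0.39, adjusted p of 0.18 by edgeR). Pemt fell by 1.23 (SE 0.19, adjusted p of 0.014 by edgeR) once that replicate was left out. Nnmt, nicotinamide N-methyltransferase, was 35.4, 178 and 193 CPM on NCD and 125, 125 and 111 on HFD. NCD replicate 1 was the lowest of all mice and the other NCD mice were the highest. With all mice the log2 fold change of Nnmt was -0.17 (SE 0.58, adjusted p of 0.86 by edgeR), and its direction turned without NCD replicate 2 (0.068) or 3 (0.18). Its fall of 0.61 (SE 0.12, adjusted p of 0.023 by edgeR) without NCD replicate 1 thus rests on leaving out that mouse. Mat2a, which makes S-adenosylmethionine outside the liver, was 182 to 329 CPM on NCD and 218 to 265 on HFD, and Ahcyl2, a homologue of S-adenosylhomocysteine hydrolase, 153 to 218 and 130 to 156, and neither passed by edgeR with or without NCD replicate 1. DESeq2 without that replicate called Ahcyl2 as lower (adjusted p of 0.029).

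The mitochondrial partners of creatine kinase are the adenine nucleotide translocators, which exchange ATP and ADP across the inner membrane, and the voltage-dependent anion channels of the outer membrane. None of the 5 tested genes of this role passed by edgeR with all 6 mice, 2 had an unadjusted p under 0.05, beside 29.7% of all genes, and DESeq2 called Slc25a5 and Vdac1 as lower, beside 11.5%. Leaving out NCD replicate 1, 3 of the 5 passed as lower on HFD, beside 10.1%. Slc25a4 was 118, 206 and 216 CPM on NCD and 158, 145 and 125 on HFD. Its log2 fold change was -0.34 (SE 0.27, adjusted p of 0.43 by edgeR) with all mice and 0.065 with scaling by total counts alone, and without NCD replicate 1 Slc25a4 fell by 0.55 (SE 0.14, adjusted p of 0.043 by edgeR). Vdac1 was 223, 246 and 282 CPM on NCD and 184, 169 and 162 on HFD, with no overlap. Its log2 fold change was -0.54 (SE 0.17, adjusted p of 0.10 by edgeR) with all mice, and it fell by 0.61 (SE 0.13, adjusted p of 0.031 by edgeR) without NCD replicate 1. Vdac3 was 69.2, 118 and 120 CPM on NCD and 81.3, 87.1 and 87.3 on HFD, so that NCD replicate 1 was the lowest of the 6. Its log2 fold change was -0.26 (SE 0.24, adjusted p of 0.48 by edgeR) with all mice and 0.15 with scaling by total counts alone, and it fell by 0.47 (SE 0.11, adjusted p of 0.034 by edgeR) without NCD replicate 1.

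Slc25a5 was 400.5, 324 and 300 CPM on NCD and 243, 218 and 200 on HFD. Its diets did not overlap, with a log2 fold change of -0.63 (SE 0.20) and an adjusted p of 0.099 by edgeR, and it was -0.49 (SE 0.14, adjusted p of 0.061 by edgeR) without NCD replicate 1. Vdac2 was 152 to 190 CPM on NCD and 129 to 187 on HFD and overlapped. The translocator and channel genes have processed pseudogene copies, so their counts are uncertain where reads were shared among copies.

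Slc16a12, a transporter of creatine and the single gene of its role here, was 8.40, 47.8 and 48.9 CPM on NCD and 12.8, 13.2 and 10.1 on HFD. NCD replicates 2 and 3 were above every other mouse and NCD replicate 1 was the lowest of the 6. The log2 fold change was -1.54 (SE 0.63, adjusted p of 0.16 by edgeR) with all mice. It fell 3.98-fold without NCD replicate 1 (log2 -1.99, SE 0.15, adjusted p of 0.0054 by edgeR). Its level thus had the pattern of Gamt and Pemt, in which NCD replicate 1 was low, and not that of Slc6a8, the other creatine transporter, in which it was high.

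Of the other phosphatases listed, Phospho1 was found, and Alpi, Akp3 and Alppl2 were not analysed here. Phospho1, a phosphatase of phosphocholine and phosphoethanolamine, was 7.22, 7.74 and 7.76 CPM on NCD and 16.1, 11.1 and 13.3 on HFD. All HFD mice were above all NCD mice, which were close together. Its log2 fold change was 0.83 (SE 0.21, adjusted p of 0.062 by edgeR), and without NCD replicate 1 Phospho1 rose by 0.81 (SE 0.20, adjusted p of 0.042 by edgeR).

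**Figure D5:**
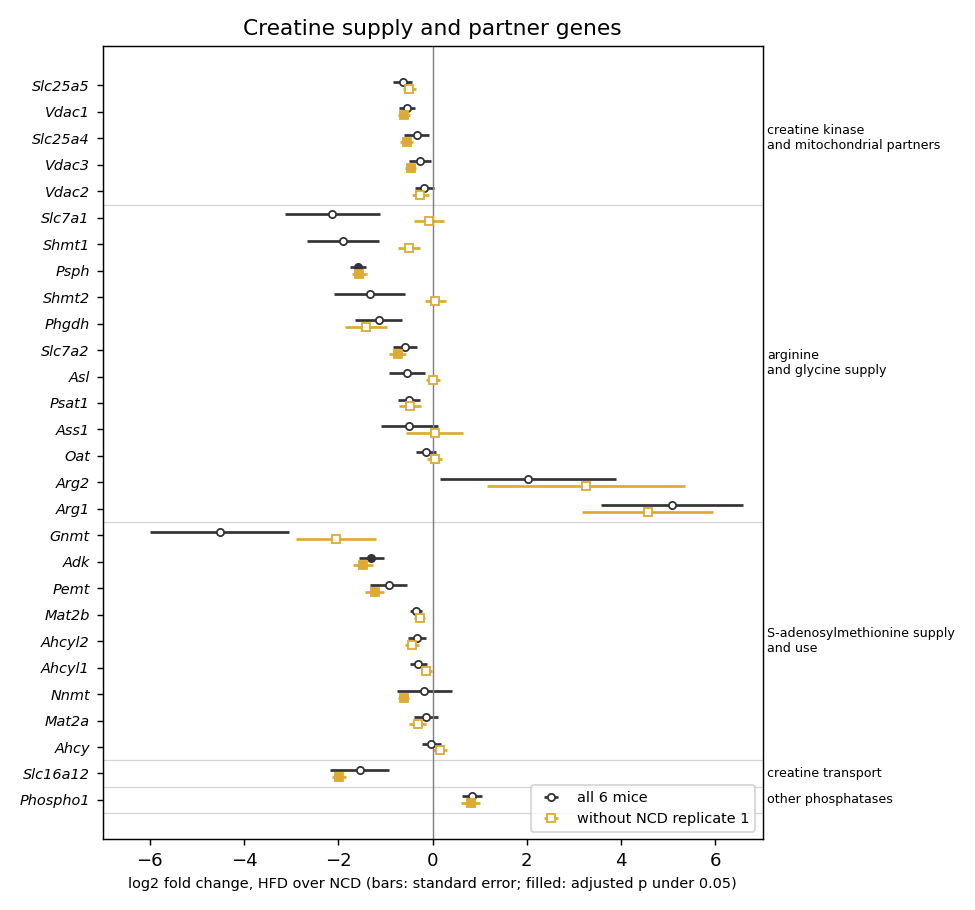
Log2 fold change of HFD over NCD for the 28 tested supply and partner genes, grouped by role (points; bars are the standard error), with all 6 mice in black and without NCD replicate 1 in yellow, filled where the adjusted p was under 0.05. With all mice Psph and Adk are filled, and without NCD replicate 1 there are 10 filled points, of which Phospho1 is the single one to the right of 0.

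Thermogenic genes were listed because creatine cycling is best known from thermogenic fat. None of the 6 tested genes of that list passed by edgeR with all 6 mice, 2 had an unadjusted p under 0.05, beside 29.7% of all genes, and DESeq2 called 2, Dio2 and Ppargc1a, as lower, beside 11.5%. Ppargc1a, a coactivator of mitochondrial biogenesis, had a log2 fold change of -1.64 (SE 0.60, adjusted p of 0.13 by edgeR) with all mice, and it passed as lower without NCD replicate 1 (-2.00, SE 0.44, adjusted p of 0.031 by edgeR), 1 of 6 beside 10.1% of all genes. The adipocyte sum too was lower in the HFD mice than in NCD replicates 2 and 3, and its part in these values was not tested. Ucp1, the uncoupling protein that defines thermogenic adipocytes, had 0 counts in every NCD mouse and 6 counts in every HFD mouse. Its observed mean level on HFD was 1.38 times a floor of 3 counts per NCD library. The HFD counts have counting error too, which this value leaves out, so it is not a lower limit. The gene was near the limit of detection in both diets.

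For each creatine gene, the genes most like it over the 6 mice were ranked by Pearson's r of log2 levels among 9894 genes with a mean of at least 10 CPM. They were Meis3 (0.991) and Prkcd (0.986) for Gatm, Chchd3 (0.999) for Gamt, and Blnk (0.984) and Rps6ka2 (0.982) for Ckb. Blnk, like Ckb, was high in NCD replicate 1, at 65.3 CPM, and in HFD replicate 1, at 77.7, and 6.14 to 23.6 in the other mice. For Ckmt1 they were Slc39a8 (0.954) and Dsel (0.952), for Slc6a8 Reps2 (0.999) and Nrd1 (0.996), and for Alpl Fkbp11 (0.990) and Zfp335 (0.989). Chchd3 was 52.3, 88.3 and 93.1 CPM in NCD replicates 1, 2 and 3 and 62.6, 56.9 and 50.8 in HFD replicates 1, 2 and 3, and so shared with Gamt the low value of NCD replicate 1. With 6 mice that share diets, libraries and the seminal vesicle share, such values describe likeness of pattern alone.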

How the data were processed

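The authors deposited raw read counts per gene, 1 column per mouse, listed by NCBI gene identifier. The submitters' processing notes name bcl2fastq 2.20.0, Trimmomatic, HISAT2 2.1.0, StringTie 1.3.4d, DESeq2 and the build mm10/GRCm38, with no role or order. The sources used here give no annotation release. Libraries were made from mRNA with a TruSeq kit and sequenced on an Illumina NovaSeq.

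Identifiers were matched to symbols in RefSeq of GRCm38.p6 (19742 of 19790), which also gave coordinates and promoters. Genes were kept by filterByExpr (at least 10 counts, with a total of at least 15). After TMM scaling they were fitted with edgeR 4.0.16 (glmQLFit and glmQLFTest, R 4.3.3), diet being the single term, with Benjamini-Hochberg adjustment over 15241 genes and a threshold of 0.05. DESeq2 1.42.0 and limma 3.58.1 served as alternatives. The edgeR procedure was also run on simulated counts with added diet differences. Those counts held no seminal vesicle admixture, so the run cannot speak to the effect of NCD replicate 1. Exon lengths came from GENCODE basic transcripts and may differ from those of the authors. Ratios had 0.5 counts added, and likeness was measured on log2(CPM + 0.1).

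Members, lists and the rule for named genes (all members, list genes past the threshold, and 2 others per role by level) were chosen with earlier results of these data known. The labels number the samples of a diet and give no batch or animal, so p-values measure the spread between these samples. No replicate pair was as close as sampling noise allows (chi-square of 116 to 3597 for each degree of freedom). The floor for Ucp1 covers counting error in the NCD libraries only. A gene that the rule on likeness of pattern would name is not reported here.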

Additional observations from a re-analysis of the deposited data

How the results depend on the processing

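Over all genes, 1139 passed with all 6 mice (74.6% of them higher on HFD). DESeq2 called 3904 (55.1%), limma voom with sample weights 5570 (50.7%), DESeq2 without NCD replicate 1 5393, NCD replicate 3 alone against HFD 529, and leaving out 1 mouse 2 to 3234, the highest without NCD replicate 1 and at most 7 without any other mouse. With no filter on low counts it was 803. Of the creatine genes, 0 passed, against 1 by total counts alone (Gatm), 2 by DESeq2, 1 by limma voom (Gamt), 4 by DESeq2 without NCD replicate 1 (Ckb, Ckmt1, Gatm and Gamt) and 0 to 2 when 1 mouse was left out. Of the 28 supply and partner genes tested with all mice, 2 passed, against 1 with no filter, 0 by total counts alone and 9 by DESeq2. It was 15 by limma voom, 15 by DESeq2 without NCD replicate 1, and 0 to 10 when 1 mouse was left out. Of all genes tested, edgeR called 7.47% with all mice, 20.9% without NCD replicate 1 and 6.29% by total counts alone. DESeq2 called 25.6% of all genes, limma voom 36.5% and DESeq2 without NCD replicate 1 34.8%.

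Gatm, Gamt, Ckb and Ckmt1 kept their direction in all 16 alternatives. Slc6a8 was -2.80 to 0.036 when 1 mouse was left out, positive without NCD replicate 1, 0.030 by DESeq2 without that replicate and 0.87 with NCD replicate 3 alone. Alpl was -0.89 to 0.59 when 1 mouse was left out, positive without NCD replicate 1, 0.57 by DESeq2 without it, 0.41 by total counts, 0.34 by limma voom and 1.21 with NCD replicate 3 alone. By total counts, which moves the median of all genes from -0.08 to 0.45, Slc25a4 reversed to 0.065, Vdac3 to 0.15, Vdac2 to 0.28, Oat to 0.44, Nnmt to 0.12, Mat2a to 0.28 and Ahcyl2 to 0.12. Leaving out 1 mouse gave -0.24 to 0.042 for Oat (positive without NCD replicate 1), -0.61 to 0.18 for Nnmt (positive without NCD replicate 2 or 3) and -0.32 to 0.089 for Mat2a (positive without NCD replicate 3). Oat also reversed to 0.11 by limma voom, 0.031 by DESeq2 without NCD replicate 1 and 0.021 with NCD replicate 3 alone. The cause was not tested.

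Same-numbered mice of the diets share only a replicate number in the labels (correlation of deviations -0.06, -0.05 and 0.01), and no mouse was most like its own number. The deposited column of counts for HFD replicate 3 carries a different number from that label. With the replicate number as a block, 12 genes passed, 0 of the creatine genes and 1 supply gene (Arg1), and Nnmt was 0.12. The settings with NCD replicate 3 alone, where the lone mouse is assumed to vary like the HFD mice, and the ratio of Ckb to Ckmt1 in place of Ckb to Ckmt2 were chosen after seeing the data. The 3 ratios kept their direction in every alternative run. For Ckmt1, Ckm and Ucp1 the low counts limit precision.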
